A study of Mus musculus with 4 samples.

Results

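Liver transcripts of mice that received amyloid fibrils but no training were set against those of mice that trained but received no fibrils. The fibril sedentary group (FS) had been injected intravenously with AApoAII amyloid fibrils, the aggregated form of apolipoprotein A-II, and was not exercised, and the vehicle interval-trained group (VI) had been given saline and ran high-intensity interval training (IT) on a treadmill over 16 weeks. All mice were 26-week-old females that carried the amyloidogenic Apoa2c allele, named in the labels as Apoa2c congenic on AKR/J and in the study's methods as R1.P1-Apoa2c on a SAMR1 background, and livers were taken within a day of the end of training. The sedentary vehicle group (VS) and the group with both fibrils and IT (FI) are given beside them as a reference. Each group is 1 library made from the pooled liver of 4 mice, so FS and VI hold 8 of the 16 sequenced mice, and no value has a replicate error.

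Of 35275 listed genes, 9142 had at least 5 CPM (counts per 1000000 counts, scaled by TMM, a factor that aligns the bulk of genes between libraries) in FS or VI and form the compared set. Just inside this limit was Tma16, with 5.01 CPM in VI, and just outside it Maged2, with 4.98 CPM in FS. The libraries held 28814802 gene counts in FS, 24524287 in VI, 23442935 in VS and 24801185 in FI. Every interval below is an exact 95% counting interval, which covers the sampling of reads only, not the spread between animals or pools, and not duplicate reads. All 12 hepatocyte markers were above the 5 CPM limit, and none of them differed by more than 2-fold, against 3.1% of all compared genes. Their log2 ratios FS/VI ranged from −0.70 for Cyp2e1 to 0.81 for Fgb, with 0.09 for Alb, the albumin gene. In pooled bulk tissue fewer cells of a type and less RNA per cell cannot be told apart. FS and VI differ by both exposures, and neither the hour of day of tissue collection nor the feeding state is given in the labels.

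Fibrils of AApoAII seed the deposition of amyloid in many organs, the liver included. Hepatocytes make most plasma proteins, so they carry a large load of protein folding in the endoplasmic reticulum (ER) and answer inflammation by secreting acute phase proteins, while exercise and fasting draw on the same cells for glucose, fat oxidation and amino acid breakdown. Several stress programmes run in this tissue in parallel: the ER unfolded protein response, the ATF4-driven integrated stress response, the HSF1-driven heat shock response of the cytosol, p53, p38 MAPK and NRF2 signalling, and the glucocorticoid response.

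Most transcripts differed little between the 2 single exposures. The median log2 ratio FS/VI over the compared genes was −0.01, and their quartiles were −0.21 and 0.21 on the log2 scale. More than 2-fold higher in FS were 186 genes (2.03%), and more than 2-fold lower were 97 (1.06%), together 283 genes (3.1%). Over 4-fold differences were found for 27 genes in the direction of FS and for 15 in the direction of VI. A gene was counted at the same level where its whole counting interval lay within 0.5 log2 units of 0, which is 1.41-fold, and this held for 6142 genes (67.2%). The remaining 2717 genes lay between these limits. Close to the 2-fold limit stood the ER cochaperone gene Dnajb11, with a log2 ratio of 0.996 and not counted, and the stellate cell receptor gene Pdgfrb, with one of 1.01 and counted.

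**Figure D1:**
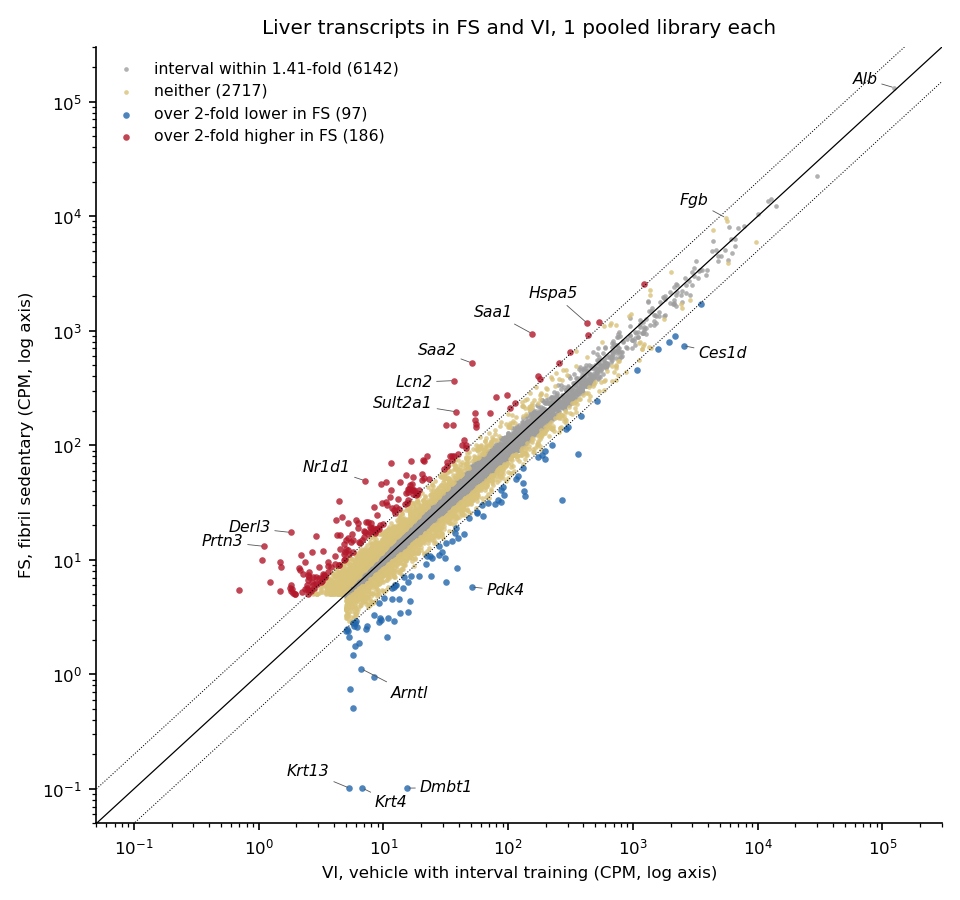
Level of each of the 9142 compared genes in VI (horizontal, CPM, log axis) and FS (vertical, CPM, log axis), with equal levels on the solid line and 2-fold differences on the dotted lines. Acute phase and ER genes such as Saa2, Lcn2 and Derl3 lie above the lines and Ces1d, Pdk4 and Arntl below; genes under 3 counts in FS (Krt4, Krt13 and Dmbt1) are drawn at the level of 3 counts.

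Acute phase genes were often higher in FS. These acute phase proteins are induced in hepatocytes mainly by interleukin-6 and interleukin-1. Of 37 listed genes 36 were compared, with a median log2 ratio of 0.70. More than 2-fold higher in FS were 10 (27.8%, against 2.03% of all genes) and more than 2-fold lower 1 (2.78%, against 1.06%). At the same level were 11 (30.6%, against 67.2%). Saa2 (chr7:46751833-46754314 on mm10), a serum amyloid A of high density lipoprotein, stood at 523 CPM in FS and 51.1 in VI, beside 9.95 in VS and 1164 in FI. It was low in VS and intermediate in VI, and FS exceeded VI 10.2-fold (log2 ratio 3.36, 3.27 to 3.44). Its neighbour Saa1 was at 945 CPM in FS and 155 in VI, beside 29.98 in VS and 1803 in FI, 6.11-fold higher in FS (log2 ratio 2.61, 2.56 to 2.66). Because Saa1 and Saa2 are close copies, reads may be shared between them. Lcn2, the siderophore-binding lipocalin 2, showed the same order of libraries with 367 CPM in FS and 36.5 in VI, beside 6.35 in VS and 549 in FI, a 10.1-fold difference between FS and VI (log2 ratio 3.33, 3.23 to 3.43). Orm2, an orosomucoid, was at 149 CPM in FS and 36.1 in VI, beside 9.697 in VS and 97.4 in FI (log2 ratio 2.05, 1.94 to 2.15). All 4 were thus higher in VI than in VS as well, but further from VS in FS.

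The other acute phase genes followed to a lesser degree. The 3 fibrinogen chains Fga, Fgb and Fgg were all higher in FS but below 2-fold, with log2 ratios of 0.69, 0.81 and 0.78. The Fgb levels were 5536 CPM in VI and 9689 in FS. The haem and haemoglobin binders Hpx and Hp lay near the edge of the same-level range, with log2 ratios of 0.46 (0.45 to 0.47) and 0.48 (0.46 to 0.49). Among protease inhibitors Serpina3n was 2.12-fold higher in FS (2578 against 1219 CPM), whereas Serpina3k was within the same-level range with a log2 ratio of −0.21. The metalloreductase gene Steap4 was at 155 CPM in FS and 55.01 in VI, beside 92.4 in VS and 172 in FI. It was lowest in VI, and FS was 2.81-fold higher than VI. Hamp2, a hepcidin paralog, was the single member more than 2-fold lower in FS, with 82.9 CPM in FS and 187 in VI, beside 168 in VS and 128 in FI, and Hamp itself, the iron-regulating hormone, had a log2 ratio of −0.42. Upstream, the interleukin-1 receptor antagonist gene Il1rn (21.3 against 7.55 CPM in FS and VI), the cytokine feedback gene Socs3 (27.4 against 12.2 CPM) and the lipopolysaccharide co-receptor gene Cd14 (11.2 against 5.34 CPM) were each over 2-fold higher in FS. The transcription factor gene Cebpb and the receptor subunit gene Il6ra were at the same level, with log2 ratios of −0.05 and 0.07.

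The ER folding machinery was the second stress list that separated FS from VI. All 32 listed genes were compared, 11 were more than 2-fold higher in FS (34.4%, against 2.03% of all genes) and none was lower, with 9 at the same level (28.1%, against 67.2%) and a median log2 ratio of 0.70. Of the 11 luminal chaperones and cofactors 7 were over 2-fold higher, against 2 of 6 disulfide isomerases and oxidases, 2 of 9 degradation genes and none of the 6 sensors and transcription factors. Hspa5 (chr2:34771970-34776531 on mm10), which encodes the master chaperone BiP, stood at 1161 CPM in FS and 430.3 in VI, beside 308 in VS and 823 in FI. FS was highest, FI second and VI closer to VS, and FS exceeded VI 2.697-fold (log2 ratio 1.43, 1.400 to 1.46). Sdf2l1, a BiP cofactor, was at 69.8 CPM in FS and 11.4 in VI, beside 6.73 in VS and 41.96 in FI (log2 ratio 2.61, 2.43 to 2.799). Creld2, an ER disulfide isomerase, followed the same order of libraries with 151 CPM in FS and 31.5 in VI, beside 23.9 in VS and 110.4 in FI (log2 ratio 2.26, 2.15 to 2.37). Manf, a secreted ER stress protein, was 3.58-fold higher in FS and Hyou1, an HSP70-type nucleotide exchange factor for BiP, 3.31-fold.

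Derl3, a channel component of ER-associated degradation, had the largest ER ratio, with 17.3 CPM in FS and 1.81 in VI, beside 0.762 in VS and 11.99 in FI (log2 ratio 3.25, 2.82 to 3.74). The intervals of VI and FS were far apart, although VI rested on 44 reads. The ubiquitin ligase gene Syvn1 of the same pathway was at 166 CPM in FS and 54.3 in VI, beside 53.3 in VS and 95.99 in FI, with VI at the level of VS and FS 3.06-fold higher. Other parts of this machinery did not separate the exposures. Herpud1, an ER membrane protein of the degradation complex, was at 755 CPM in FS and 749 in VI, beside 683 in VS and 785 in FI. The 4 libraries lay close together, and FS differed from VI by 0.01 (−0.02 to 0.04) on the log2 scale. P4hb, a protein disulfide isomerase, had a log2 ratio of 0.44 (0.41 to 0.46), and the stress sensor genes Ern1 and Atf6 and the factor gene Creb3l3 were within the same-level range, with log2 ratios of 0.26, 0.27 and −0.13. Xbp1, which encodes the factor spliced on ER stress, lay between the limits with a log2 ratio of 0.85, and the gene counts do not show its splicing.

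The ER stress element, CCAAT followed after 9 bases by CCACG, was searched on both strands of promoter windows from RefSeq (GRCm38.p6, 250 bases before to 50 after each gene's start). Promoters were found for 26 of the compared ER genes, of which 9 held the element (34.6%), against 39 of all 32851 promoters (0.119%). The 9 genes were Calr, Creld2, Derl3, Hsp90b1, Hspa5 and Syvn1, all over 2-fold higher in FS, Dnajc3 and Pdia6 between the limits with log2 ratios of 0.48 and 0.96, and Canx at the same level. A gene counted as holding a motif where any of its listed promoters did, whereas the share of all promoters counts each promoter singly. A match is a run of letters and does not show binding. The 250 bases before the start of 4 of the genes that were higher in FS follow 5′ to 3′, with the element in capitals on either strand. They are given as examples of promoters that hold the element.
Hspa5 (chr2:34771840-34772089, plus strand): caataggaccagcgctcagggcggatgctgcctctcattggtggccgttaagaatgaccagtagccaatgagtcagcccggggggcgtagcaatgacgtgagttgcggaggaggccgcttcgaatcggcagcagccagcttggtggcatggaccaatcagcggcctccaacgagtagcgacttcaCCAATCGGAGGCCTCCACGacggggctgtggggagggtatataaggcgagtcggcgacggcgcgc
Hsp90b1 (chr10:86705445-86705694, minus strand): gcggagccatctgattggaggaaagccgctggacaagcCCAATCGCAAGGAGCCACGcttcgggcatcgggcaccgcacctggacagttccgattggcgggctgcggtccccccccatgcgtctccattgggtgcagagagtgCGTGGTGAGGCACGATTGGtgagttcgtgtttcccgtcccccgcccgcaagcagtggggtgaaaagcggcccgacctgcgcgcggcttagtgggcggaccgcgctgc
Creld2 (chr15:88819396-88819645, plus strand): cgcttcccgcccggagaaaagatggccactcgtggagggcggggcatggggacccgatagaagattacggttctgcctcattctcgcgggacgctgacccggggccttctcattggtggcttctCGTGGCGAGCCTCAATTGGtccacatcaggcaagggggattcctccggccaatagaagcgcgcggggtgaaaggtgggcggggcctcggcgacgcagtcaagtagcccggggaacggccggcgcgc
Derl3 (chr10:75893148-75893397, plus strand): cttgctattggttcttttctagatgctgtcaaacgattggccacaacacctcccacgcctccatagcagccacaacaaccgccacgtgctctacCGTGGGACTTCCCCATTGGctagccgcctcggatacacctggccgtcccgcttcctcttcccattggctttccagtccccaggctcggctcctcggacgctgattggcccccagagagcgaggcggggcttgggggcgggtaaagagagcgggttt

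**Figure D2:**
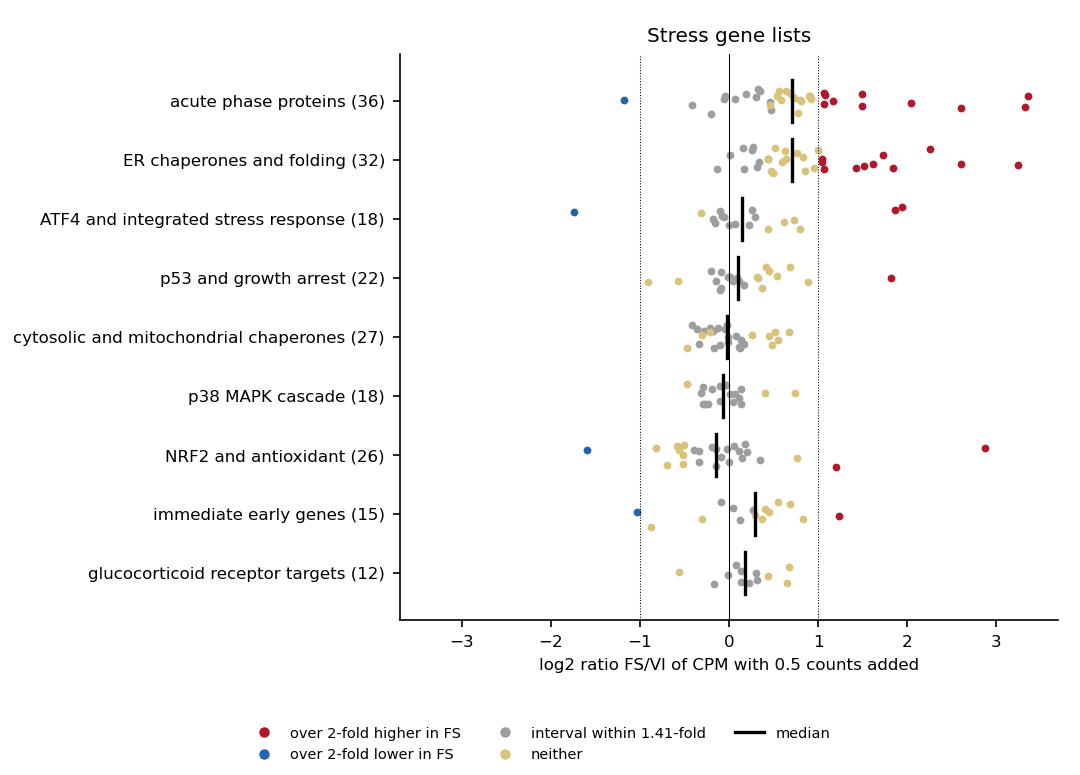
Log2 ratio FS/VI (horizontal) of the compared members of 9 stress gene lists, 1 point per gene with the number compared in brackets, and the median as a black bar. Acute phase and ER genes extend past the 2-fold line on the FS side, with medians of 0.70, while chaperones of the cytosol and mitochondria, the p38 cascade and glucocorticoid targets have no gene outside the 2-fold lines.

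Counting each gene once, 206 of the 247 genes on the 9 stress lists were compared. Higher in FS by more than 2-fold were 27 (13.1%, against 2.03% of all genes) and lower 4 (1.94%, against 1.06%). At the same level were 101 (49.0%), less than the 67.2% of all compared genes. Within a narrower margin of 0.25 log2 units stood 47 of the 206, beside 2121 of all 9142 compared genes. The lists outside the acute phase and the ER held few separated genes each, and their medians lay between −0.14 and 0.29.

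The cytosolic and mitochondrial chaperones stood near the shares of all genes. None of 27 compared genes passed 2-fold, against 3.1% of all genes, 18 were at the same level (66.7%, against 67.2%), and the median log2 ratio was −0.02. Hspa1b, an inducible HSP70, was at 17.3 CPM in FS and 17.9 in VI, beside 49.5 in VS and 7.73 in FI. VI and FS were alike (log2 ratio −0.05, −0.24 to 0.14) and both lower than VS. Hspa1a, its close copy, was under 1 CPM in every library, so reads of the pair may have been assigned unequally. Fkbp4, an HSP90 cochaperone, was likewise alike in VI and FS and lower than in VS, with 112 CPM in FS and 113 in VI, beside 208 in VS and 125 in FI. The cochaperone gene Bag3 and the factor gene Hsf1 had log2 ratios of −0.02 (−0.19 to 0.15) and 0.08 (−0.12 to 0.28). Constitutive members were slightly lower in FS and within the same-level range, with log2 ratios of −0.36 for Hspa8, −0.21 for Hsp90ab1, and −0.42, −0.28 and −0.34 for the mitochondrial chaperone genes Hspd1, Hspe1 and Hspa9.

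Small heat shock protein genes gave wider intervals. Hspb1, which encodes HSP27, was at 4.81 CPM in FS and 6.69 in VI, beside 13.7 in VS and 22.2 in FI. It was lowest in FS and highest in FI, and its log2 ratio of −0.48 (−0.81 to −0.14) lay within 2-fold, with an interval that crossed the same-level margin. Cryab, αB-crystallin, was under the 5 CPM limit, with 1.76 CPM in FS and 2.05 in VI, beside 3.599 in VS and 1.45 in FI. The core of the heat shock element, GAANNTTC, was held by 11 of 21 of these chaperone genes with a promoter entry (52.4%), against 7.86% of all promoters. Of these, Bag3, Dnaja1, Fkbp4, Hspa1b, Hspd1 and Hspe1 were at the same level. Chordc1, Hspb1, Hspb6, Hspb8 and Hsph1 lay between the limits. The same 250-base stretches are given for Hspa1b and Fkbp4, which were at the same level, with the core in capitals. Other motifs, counted likewise over 300-base windows, were the STAT motif TTCNNNGAA in 8 of 28 acute phase genes (28.6%, 8.3% of all promoters), the E-box CACGTG in 4 of 14 clock genes (28.6%, 7.15%), the D-box TTATGTAA in 1 of 14 (7.14%, 0.938%) and the C/EBP-ATF element TGATGNAA in 4 of 17 ATF4 list genes (23.5%, 3.97%).
Hspa1b (chr17:34959239-34959488, minus strand): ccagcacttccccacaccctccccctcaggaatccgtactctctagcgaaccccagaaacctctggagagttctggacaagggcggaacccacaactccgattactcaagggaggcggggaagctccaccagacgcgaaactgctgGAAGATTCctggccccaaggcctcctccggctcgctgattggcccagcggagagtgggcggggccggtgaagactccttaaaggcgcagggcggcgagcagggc
Fkbp4 (chr6:128438657-128438906, minus strand): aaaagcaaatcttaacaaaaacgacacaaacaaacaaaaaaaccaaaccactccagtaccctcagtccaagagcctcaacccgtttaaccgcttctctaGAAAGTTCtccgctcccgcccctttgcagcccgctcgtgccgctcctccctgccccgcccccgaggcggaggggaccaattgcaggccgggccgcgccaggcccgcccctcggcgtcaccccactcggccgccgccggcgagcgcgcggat

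The p38 MAPK cascade was also alike in both. Of 18 compared genes 15 were at the same level (83.3%, against 67.2% of all genes) and none passed 2-fold, with a median log2 ratio of −0.07. The upstream kinase genes Map2k3 and Map2k6 both had a log2 ratio of −0.10, and the substrate kinase gene Mapkapk2 one of −0.29. Mapk14, which encodes p38α, was at 63.7 CPM in FS and 88.4 in VI, beside 81.9 in VS and 77.8 in FI. It was lowest in FS, with a log2 ratio of −0.47 (−0.56 to −0.38), and the interval crossed the same-level margin. These are mRNA levels, and the phosphorylation by which the cascade signals is not measured by them.

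Of 22 compared genes of p53 and growth arrest 1 was more than 2-fold higher in FS and 11 were at the same level (67.2% of all genes were), with a median log2 ratio of 0.10. Cdkn1a (chr17:29090979-29100722 on mm10), the cell cycle inhibitor p21, was at 30.8 CPM in FS and 35.4 in VI, beside 5.63 in VS and 56.1 in FI. VI and FS lay close to each other, both several-fold higher than VS, and their log2 ratio was −0.20 (−0.34 to −0.07). The polo-like kinase gene Plk3 was also alike in VI and FS and higher than in VS, with 98.97 CPM in FS and 106 in VI, beside 58.02 in VS and 119 in FI. Trp53 itself and its ligase gene Mdm2 were level in all 4 libraries, the former at 14.9 CPM in FS and 15.8 in VI, beside 17.1 in VS and 15.96 in FI, with log2 ratios FS/VI of −0.09 and 0.09. The 1 gene over 2-fold was Btg2, an antiproliferative gene, with 47.8 CPM in FS and 13.5 in VI, beside 9.19 in VS and 33.6 in FI. It was 3.54-fold higher in FS than in VI. Gadd45g, a growth arrest gene, was at 60.7 CPM in FS and 32.8 in VI, beside 6.65 in VS and 159 in FI. It was lowest in VS and highest in FI, and FS exceeded VI by 0.89 (0.77 to 1.01) on the log2 scale, so its interval reached 2-fold.

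Glucocorticoid receptor targets were likewise near the shares of all genes, with none of 12 beyond 2-fold (3.1% of all genes), 8 at the same level (66.7%, against 67.2%) and a median of 0.18. Igfbp1, a binding protein for insulin-like growth factors, was at 585 CPM in FS and 533 in VI, beside 154 in VS and 1396 in FI. Like Cdkn1a, it stood at one level in VI and FS (log2 ratio 0.14, 0.10 to 0.17) well above VS, and higher again in FI. The kinase inhibitor gene Errfi1 had a log2 ratio of −0.01 (−0.03 to 0.01) and Tdo2, for tryptophan breakdown, one of 0.14 (0.12 to 0.16). Tat, a tyrosine aminotransferase gene, was higher in FS but below 2-fold, with 2018 CPM in VI and 3226 in FS. Angptl4, a lipase inhibitor gene that PPAR factors also control, was lower in FS, with a log2 ratio of −0.56.

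The ATF4 list held 2 genes over 2-fold higher in FS and 1 lower among 18 compared (2.03% and 1.06% of all genes). Another 10 were at the same level (55.6%, against 67.2%). Its median of 0.15 was 0.032 with a limit of 10 CPM and 0.29 without a limit. The mRNAs of the factors Atf4, Cebpg and Atf5 were alike, with log2 ratios of −0.10, 0.00062 and 0.26. Ddit4, an inhibitor of mTOR signalling, was at 55.3 CPM in FS and 15.1 in VI, beside 3.599 in VS and 175 in FI. It was lowest in VS and highest in FI, and FS was 3.66-fold higher than VI (log2 ratio 1.87, 1.71 to 2.04). Trib3, a pseudokinase gene, was at 16.5 CPM in FS and 4.27 in VI, beside 6.94 in VS and 7.73 in FI, highest in FS. Fgf21, a hepatokine gene shared by ATF4 and PPARα control, was at 1.897 CPM in FS and 6.36 in VI, beside 7.28 in VS and 2.11 in FI, low in both fibril groups (log2 ratio −1.74, −2.21 to −1.296). The amino acid enzyme genes Asns, Psat1 and Phgdh were under 1 CPM in all 4 libraries.

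Of 26 compared NRF2 and antioxidant genes 15 were in the same-level range (57.7%, against 67.2% of all genes), with a median of −0.14. Over 2-fold higher in FS were 2 and lower 1 (2.03% and 1.06% of all genes). Hmox1, haem oxygenase, had a log2 ratio of −0.02 (−0.16 to 0.12) and Txnrd1, thioredoxin reductase, one of −0.00079 (−0.07 to 0.06). Catalase and peroxiredoxin mRNAs, Cat and Prdx1, had log2 ratios of −0.19 and 0.11. The separated genes were glutathione transferases in both directions. Gstm3 was at 32.6 CPM in FS and 4.43 in VI, beside 8.34 in VS and 6.08 in FI, high in FS alone, and Gstm4 was 2.296-fold higher in FS, whereas Gsta2 was 3.01-fold higher in VI, with 31.3 CPM in VI and 10.4 in FS. Members of these transferase families are similar in sequence and may share reads. Among 15 immediate early genes 4 were at the same level (26.7%, against 67.2% of all genes), and 9 lay between that range and 2-fold. Jun had a log2 ratio of 0.04 (−0.12 to 0.20) and Jund one of −0.09 (−0.18 to −0.01), while Junb was 2.35-fold higher in FS (80.3 against 34.2 CPM) and the nuclear receptor gene Nr4a1 2.04-fold higher in VI, on 74 and 125 reads.

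**Figure D3:**
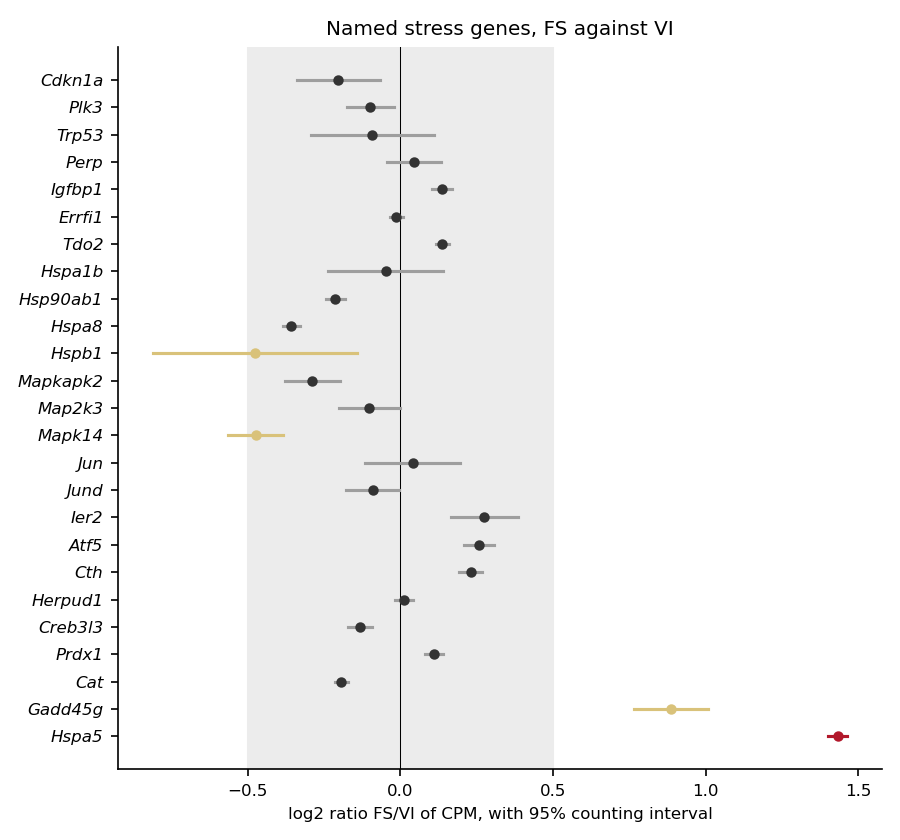
Log2 ratio FS/VI of 25 named stress genes with exact 95% counting intervals, and the same-level range of 0.5 log2 units on either side of 0 shaded. Cdkn1a, Igfbp1, Hspa1b and Jun are among those whose whole interval is shaded, Hspb1 and Mapk14 cross its edge, and Gadd45g and Hspa5 lie above it.

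Clock genes separated FS from VI in opposite directions by phase. Transcripts of this oscillator peak at different times of day, and the list set genes grouped with the phase of Nr1d1 and Dbp apart from genes grouped with that of Arntl, the latter including Cry1, a repressor whose transcript peaks late. The list held 3 genes over 2-fold higher and 4 over 2-fold lower among 17 compared (2.03% and 1.06% of all genes), the former all of the Nr1d1 group and the latter all of the Arntl group. Nr1d1 (chr11:98767932-98775333 on mm10), the repressor REV-ERBα, was at 49.05 CPM in FS and 7.101 in VI, beside 30.02 in VS and 7.19 in FI. Both sedentary libraries were high and both trained ones low, with FS 6.89-fold above VI (log2 ratio 2.78, 2.56 to 3.02). Dbp, an output factor gene, divided the libraries likewise with 80.9 CPM in FS and 22.2 in VI, beside 102 in VS and 25.5 in FI (log2 ratio 1.86, 1.73 to 1.999). Arntl, the activator BMAL1, was the reverse with 1.12 CPM in FS and 6.65 in VI, beside 1.44 in VS and 4.71 in FI (log2 ratio −2.56, −3.16 to −2.03), and Cry1 too with 6.37 CPM in FS and 31.5 in VI, beside 13.8 in VS and 22.3 in FI. Ciart was at 22.1 CPM in FS and 5.99 in VI, beside 15.6 in VS and 25.2 in FI, low in VI but not in FI. The period genes Per1, Per2 and Per3 were at the same level, with log2 ratios of 0.30, −0.26 and 0.26. Whether the hour of collection differed between the groups was not tested.

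Fat oxidation genes under PPARα, the fatty acid-sensing nuclear receptor, were often lower in FS. Of 31 compared genes 9 were more than 2-fold lower (29.0%, against 1.06% of all genes) and none was higher. Another 12 were at the same level (38.7%, against 67.2%), and the median log2 ratio was −0.56. Of the 9, 3 belonged to peroxisomal and microsomal oxidation and 6 to the thioesterases and lipid droplet genes, and none of the 12 genes of mitochondrial oxidation and ketogenesis passed 2-fold. Acot1, an acyl-CoA thioesterase, was at 83.1 CPM in FS and 361 in VI, beside 342 in VS and 297 in FI. FS alone was low, by 4.34-fold against VI (log2 ratio −2.12, −2.18 to −2.05). The ω-hydroxylase genes Cyp4a10 and Cyp4a14 shared this pattern, the former with 904 CPM in FS and 2173 in VI, beside 1916 in VS and 1926 in FI. Acaa1b, a peroxisomal thiolase, differed in that FI was low as well, with 791 CPM in FS and 1949 in VI, beside 2994 in VS and 933 in FI. Plin4, a lipid droplet coat gene, was at 7.21 CPM in FS and 19.3 in VI, beside 5.25 in VS and 29.1 in FI, high in the trained libraries. The rate-limiting importer Cpt1a was level, with a log2 ratio of 0.01. The Cyp4a and Acot genes have close copies that may share reads.

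Pdk4, the kinase that inhibits pyruvate dehydrogenase on fasting or exercise, was among the genes with the lowest ratios. It stood at 5.79 CPM in FS and 50.98 in VI, beside 25.96 in VS and 44.5 in FI. FS was lowest, VS intermediate and both trained libraries high, with VI 8.78-fold above FS (log2 ratio −3.13, −3.38 to −2.91). G6pc, the glucose-6-phosphatase of gluconeogenesis, was at 181 CPM in FS and 381 in VI, beside 206 in VS and 694 in FI, with VI 2.105-fold higher than FS. The other 7 of 8 compared gluconeogenic genes were level (67.2% of all genes were), among them Pck1 and Fbp1 with log2 ratios of 0.21 and −0.07. Of all 21 compared genes of gluconeogenesis and glucose sensing, 12 were at the same level (57.1%, against 67.2%). Over 2-fold higher in FS were 2 (9.52%, against 2.03% of all genes) and lower 2 (9.52%, against 1.06%). The coactivator gene Ppargc1a was at 17.5 CPM in FS and 19.9 in VI, beside 10.97 in VS and 25.6 in FI (log2 ratio −0.18, −0.36 to −0.00061). In the opposite direction, the glycolytic genes Pfkfb3 and Pklr were 3.32-fold and 2.03-fold higher in FS.

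Cholesterol synthesis genes were higher in FS in 9 of 26 cases (34.6%, against 2.03% of all genes) and lower in none, with 12 at the same level (46.2%, against 67.2%) and a median of 0.45. Sqle, squalene epoxidase, was at 22.2 CPM in FS and 4.19 in VI, beside 9.02 in VS and 3.64 in FI. Both trained libraries were low, and FS exceeded VI 5.29-fold (log2 ratio 2.402, 2.105 to 2.72). Cyp51, a sterol demethylase gene, was at 49.4 CPM in FS and 20.5 in VI, beside 45.8 in VS and 17.1 in FI, so FS was near VS and VI was below both. Idi1, Nsdhl, Fdps and Msmo1 had log2 ratios of 1.84, 1.395, 1.14 and 1.13. The factor gene Srebf2 and its regulator Insig1 were level, with log2 ratios of 0.33 and 0.05. Of the bile acid list 3 of 21 genes were more than 2-fold lower in FS (1.06% of all genes), namely the sterol exporter genes Abcg5 (log2 ratio −1.11) and Abcg8 (−1.18) and the 12α-hydroxylase gene Cyp8b1 (−1.06), while Cyp7a1, which sets the rate of bile acid synthesis, had a log2 ratio of −0.07.

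Of 11 compared sulfotransferase genes 2 were more than 2-fold higher in FS and none lower (2.03% and 1.06% of all genes). The same level was held by 5, against 67.2% of all genes, and the median log2 ratio was 0.22. Sult2a1, a bile acid and steroid sulfotransferase, was at 196 CPM in FS and 38.4 in VI, beside 322 in VS and 20.3 in FI. The trained libraries were low, and FS was 5.09-fold above VI (log2 ratio 2.35, 2.25 to 2.45). Sult2a3, a close copy, had the same division, with 10.9 CPM in FS and 2.18 in VI, beside 28.5 in VS and 0.124 in FI. Of 28 urea cycle and amino acid genes 23 were at the same level (82.1%, against 67.2% of all genes). More than 2-fold lower in FS were 2 (7.14%, against 1.06%). Got1, an aspartate aminotransferase, was at 376 CPM in FS and 454 in VI, beside 86.6 in VS and 946 in FI, with VI and FS close (log2 ratio −0.27, −0.31 to −0.23) and both above VS. Sds, serine dehydratase, had the same order, with 114 CPM in FS and 114 in VI, beside 54.6 in VS and 177 in FI. Etnppl, a phosphoethanolamine lyase gene, was at 35.7 CPM in FS and 136 in VI, beside 29.8 in VS and 139.7 in FI, high in the trained libraries (log2 ratio −1.93, −2.03 to −1.83), and Prodh was 2.08-fold higher in VI.

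**Figure D4:**
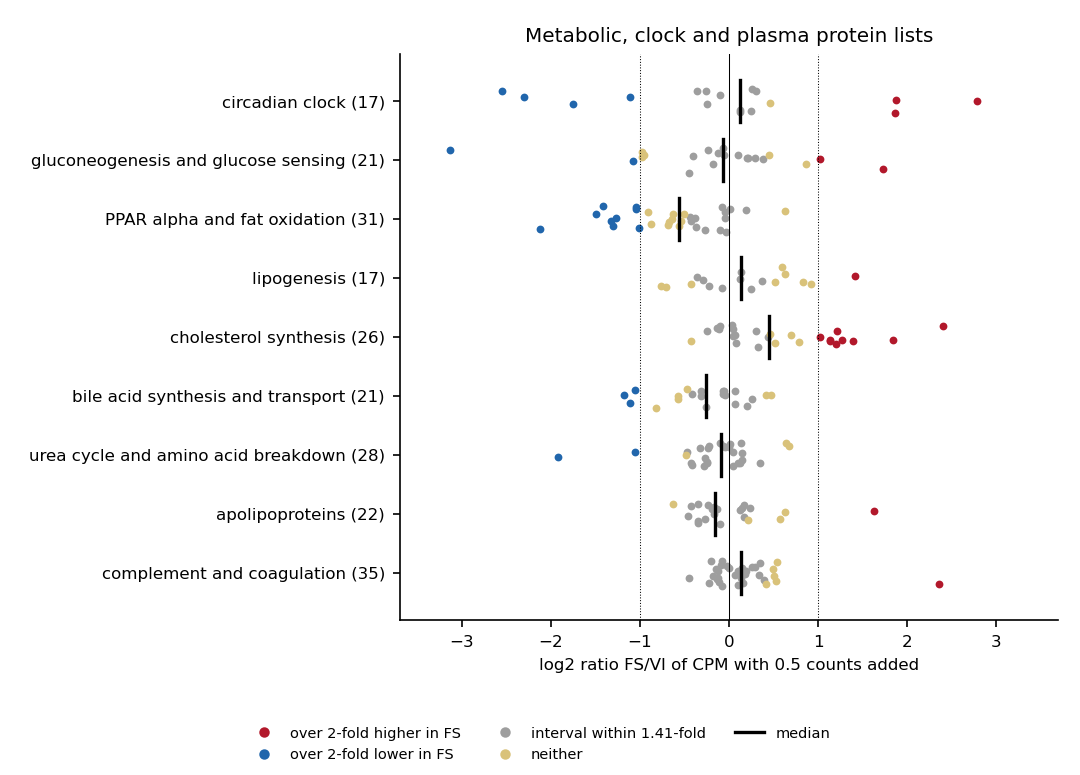
Log2 ratio FS/VI (horizontal) of the compared members of 9 metabolic, clock and plasma protein lists, 1 point per gene with the number compared in brackets, and the median as a black bar. PPAR alpha genes extend to the VI side (median −0.56), cholesterol synthesis genes to the FS side (median 0.45), and clock genes to both.

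**Figure D5:**
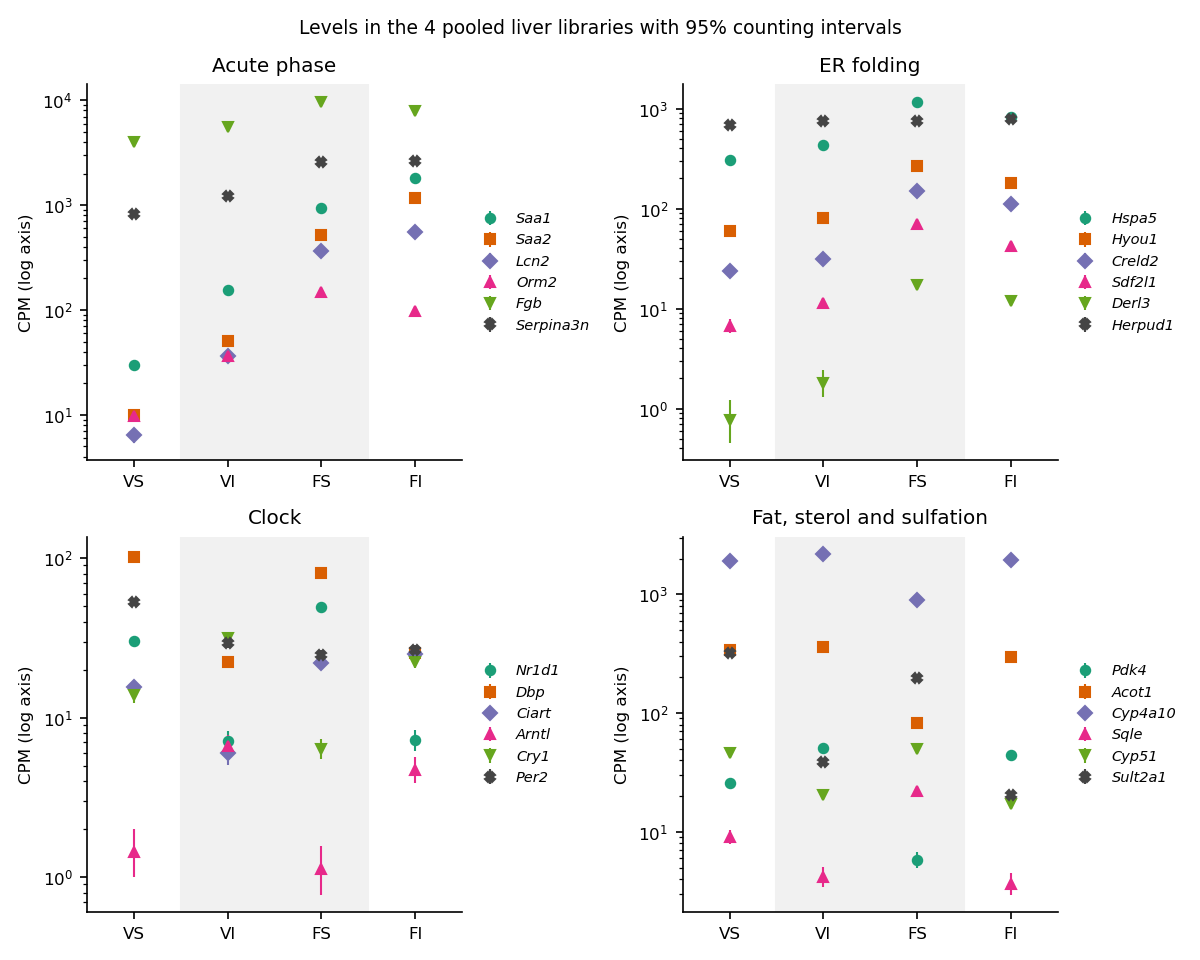
CPM (log axes) of 24 genes in the 4 pooled libraries, with exact 95% Poisson intervals and the compared pair VI and FS shaded. Saa2 is at 9.95 CPM in VS and 1164 in FI, Nr1d1 is high in VS and FS and low in VI and FI, and Herpud1 is nearly level.

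The precursor of the amyloid was not separated. Apoa2 was at 5451 CPM in FS and 6584 in VI, beside 8482 in VS and 5628 in FI, highest in VS, and its log2 ratio FS/VI was −0.27 (−0.28 to −0.26). Apoa1, the main protein of high density lipoprotein, had one of 0.14 (0.14 to 0.15). Of 22 apolipoprotein and lipoprotein genes 17 were at the same level (77.3%, against 67.2% of all genes). The lipase gene Lpl alone was over 2-fold higher in FS (35.3 against 11.4 CPM), 4.55% of the list against 2.03% of all genes. Complement and coagulation genes were level in 29 of 35 cases (82.9%, against 67.2%). None of 15 compared interferon-stimulated genes passed 2-fold, against 3.1% of all genes.

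Markers of some other cell types were higher in FS, and those of others were level. Of 11 compared macrophage markers 10 had a log2 ratio above 0, with a median of 0.52, against −0.01 over all compared genes. Only Lyz2 was over 2-fold higher in FS (71.1 against 32.4 CPM), 9.09% of them against 2.03% of all genes. Another 4 were at the same level (36.4%, against 67.2%). The summed level of all 16 markers was 494 CPM in FS and 352 in VI, with 324 in VS and 443 in FI. The Kupffer cell genes Clec4f and Timd4 had log2 ratios of 0.21 and −0.0019. Plasma cell transcripts were low but higher in FS, the immunoglobulin chains Igha and Igkc by 2.96-fold and 2.45-fold. The part of these cells in the acute phase and ER differences was not tested. T and NK cell markers summed to 2.37 CPM in FS and 1.601 in VI. Prtn3, a protease of myeloid granules, had the highest ratio of all named genes. It was at 13.1 CPM in FS and 1.11 in VI, beside 0.593 in VS and 10.1 in FI. Of 14 neutrophil and myeloid precursor markers it was the 1 compared. Their summed level, with Prtn3 included, was 22.1 CPM in FS and 5.13 in VI, with 4.40 in VS and 15.3 in FI. Elane, Mpo, Ctsg and Camp, also granule genes, were under 0.2 CPM in FS. Endothelial markers were level in 7 of 8 cases (87.5%, against 67.2% of all genes).

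The lowest ratios belonged to epithelial genes found in VI. Krt4 and Krt13, keratins of squamous epithelium, had 165 and 130 reads in VI and none in VS, FS or FI, so that VI was at least 66.7-fold and 52.5-fold higher than FS when FS is set at 3 counts (0.102 CPM). Dmbt1, a mucosal glycoprotein gene, had 376 reads in VI and 2 in FS, a ratio of 183 (62.6 to 1888), with 0.932 CPM in VS and 3.35 in FI. On a list of 13 squamous epithelium genes written after these values had been seen, 10 had reads in VI, 357 in all, and none had a read in any other library. Without this list and the skeletal muscle list 95 genes were more than 2-fold lower in FS. Skeletal muscle transcripts summed to 1.15 CPM in FS and 10.7 in VI, with 79.6 in VS and 1.07 in FI, over 13 markers, none of which reached 5 CPM in VI or FS. Bile duct markers summed to 5.34 CPM in VI and 5.32 in FS. The part of other tissue in the pools in further differences was not tested.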

How the data were processed

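Liver of 4 mice per group was homogenized in TRIzol, pooled by group and sequenced as 1 library. Per the submitters' processing notes, fastp 0.23.2, STAR 2.5, HTSeq 0.6.1 and mm10 were used. Neither the strand setting nor the treatment of multi-mapped reads is stated. The authors deposited raw read counts per gene and FPKM values made from them. Counts were scaled by TMM over the 4 libraries (edgeR 4.0.16, R 4.3.3). Log2 ratios were taken after 0.5 counts had been added to each count, and intervals were exact conditional binomial (Clopper-Pearson), at 95%, computed with SciPy 1.17.1; levels have exact Poisson intervals. With 1 library per group there is no test. The ratio script was tested on simulated data. Named were the 10 highest and 10 lowest ratios, the 5 largest CPM differences each way, up to 6 separated members of each of 33 lists, 3 level members of each stress list, and genes the study discusses; further list members are named to complete a role, and some members are not reported here. The genes, lists and rules were chosen with earlier results of these data known. Another list, of squamous epithelium genes, was added later. Of the 697 list genes, 6 were found under another symbol. Alternatives were 3 scalings, 3 filters, a larger prior, FPKM with a pseudocount of 1, DESeq2 1.42.0 size factors being one of the scalings, and other thresholds. Figures were drawn with matplotlib 3.10.9.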

Additional observations from a re-analysis of the deposited data

How the results depend on the processing

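Scaling by DESeq2 size factors, by total counts or by TMM over FS and VI alone gave between 179 and 209 genes more than 2-fold higher in FS, between 88 and 102 lower, and between 6122 and 6142 at the same level, and moved the median of all genes by at most 0.046 on the log2 scale and no list median by more than 0.071. Filters moved the counts most: with a limit of 1 CPM, 403 genes were higher and 199 lower, and without a filter 2455 and 2076. FPKM with a pseudocount of 1 gave 122 higher and 59 lower, and has no count from which a same-level interval could be made. At 1.5-fold the counts were 608 and 407, at 4-fold 27 and 15, and a margin of 0.25 left 2121 genes at the same level. None of the 73 named genes beyond 2-fold changed direction under the 5 alternatives computed for single genes, though 6 fell inside 2-fold with FPKM and 1 each with DESeq2 size factors, total counts and a prior of 2 counts. Filters moved the 27 list medians by up to 0.246, and that of the ATF4 list, 0.15, became 0.032 with a limit of 10 CPM, 0.22 with 1 CPM and 0.29 without a filter. The medians of 3 lists (chaperones of the cytosol and mitochondria, endothelial markers and the p38 cascade), all within 0.07 of 0, changed sign under an alternative. No paired analysis was possible because each group is 1 library, and for the same reason no library could be left out. With 1 pool per group, differences between animals, pools or collection cannot be told apart from the exposures; the depth limits genes near 5 CPM, since among the 428 whose higher level was between 5 and 6 CPM the counting interval had a median width of 0.721 on the log2 scale and 27.3% were placed at the same level.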

Other observations

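Among genes on none of the lists, named here after their values had been seen, several others of the secretory route were over 2-fold higher in FS. Fkbp11, a prolyl isomerase of the ER, was at 23.8 CPM in FS and 4.68 in VI, beside 5.29 in VS and 12.03 in FI, highest in FS and second in FI (log2 ratio 2.34, 2.06 to 2.65). Gmppb and Pgm3 make activated sugars for glycosylation. Gmppb was at 16.4 CPM in FS and 4.47 in VI, beside 4.66 in VS and 9.22 in FI, and Pgm3 had the same order of FS and VI, with 2.13 CPM in VI and 8.23 in FS. Tmed3 and Arfgap3, of vesicle traffic between ER and Golgi, had log2 ratios of 1.69 (1.48 to 1.904) and 1.57 (1.28 to 1.87). Slc41a2, a magnesium transporter gene, was at 45.7 CPM in FS and 9.48 in VI, beside 5.505 in VS and 44.9 in FI, with both fibril libraries alike. Cxcl1, a chemokine that draws neutrophils, was at 48.00 CPM in FS and 10.4 in VI, beside 6.82 in VS and 23.5 in FI, and Nnmt, nicotinamide N-methyltransferase, was at 74.2 CPM in FS and 20.9 in VI, beside 3.98 in VS and 140.2 in FI, higher in FS than in VI and highest in FI. Serpina7, which encodes thyroxine-binding globulin, was at 73.1 CPM in FS and 16.7 in VI, beside 25.1 in VS and 23.3 in FI, high in FS alone.

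Several enzymes of xenobiotic and lipid handling were lower in FS than in VI. Ces1d, a carboxylesterase that hydrolyses stored lipid and drugs, was at 740.3 CPM in FS and 2544 in VI, beside 2467 in VS and 1034 in FI. Both fibril libraries were low and both vehicle libraries high, with VI 3.44-fold above FS. Cyp2a5, a cytochrome P450 gene, was divided in the same way with 696 CPM in FS and 1592 in VI, beside 1643 in VS and 802 in FI. Abcb1a, a drug exporter gene, and Mme, the peptidase neprilysin, were also low in both fibril libraries. Abcb1a was at 10.5 CPM in FS and 24.3 in VI, beside 21.2 in VS and 8.43 in FI. Mme was at 16.8 CPM in FS and 44.4 in VI, beside 47.3 in VS and 17.2 in FI. Crat, carnitine acetyltransferase, was low in FS alone, with 50.8 CPM in FS and 116 in VI, beside 117 in VS and 99.2 in FI, and Retsat, retinol saturase, was as well, with 456 CPM in FS and 1081 in VI, beside 887 in VS and 896 in FI. Csad, of taurine synthesis, was at 75.8 CPM in FS and 196 in VI, beside 93.3 in VS and 110.0 in FI, high in VI. Cyb561, an electron transporter of vesicle membranes, and Smoc2, a matrix protein gene, were high in FS, by 9.26-fold and 6.34-fold, whereas Unc79, a sodium channel subunit gene, Lonrf3 and Ankrd55 were low there, with log2 ratios of −2.33, −2.82 and −2.21.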
